A study of Mus musculus with 6 samples.

Results

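The 10 genes described here encode nuclear receptors that control hepatic metabolism and proteins that bind such receptors. They were taken by gene symbol, and all 10 symbols were found among the 16426 genes listed in at least 1 of 6 mouse liver libraries. They are the peroxisome proliferator-activated receptors Ppara, Ppard and Pparg, the liver X receptor Nr1h3, the retinoid X receptor Rxra, the thyroid hormone receptor Thrb, the estrogen-related receptor Esrra, the coactivators Ppargc1a and Ppargc1b, and the corepressor Ncor1. RNA was sequenced from the livers of 7 to 12 week old mice of a mixed B6:sv129 background, which had received AAV8 through the tail vein. In 3 livers the vector carried a scrambled short hairpin RNA (shRNA), and in the other 3 an shRNA against S1pr2, a receptor for sphingosine-1-phosphate, and these are called knockdown livers below. According to the series text the mice were male and drank the glucocorticoid dexamethasone at about 0.84 mg/kg for 7 days. Both groups share this drug, which the sample labels do not name, and livers without it were not analysed here.

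Nuclear receptors are transcription factors that bind short DNA motifs and change partner proteins when a lipid or hormone ligand occupies them. PPARs, liver X receptors and thyroid hormone receptors bind DNA together with a retinoid X receptor, whereas ERRα needs no known natural hormone. PGC-1 coactivators lack a DNA-binding domain of the receptor type and dock onto receptors to recruit the transcription machinery, and NCoR1 docks onto the same receptors to recruit histone deacetylase. In liver these proteins govern fatty acid oxidation, ketogenesis, sterol export, lipogenesis and mitochondrial gene expression.

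Libraries held 16558775 to 17410160 expected counts, which are the fragments that the authors' software assigned to each gene. Levels are given as CPM, counts relative to the TMM-scaled size of the library, and differences as the knockdown level over the scramble level. S1pr2 itself stood at 4.41, 5.23 and 6.66 CPM with the scrambled hairpin (livers 1, 2 and 3) and at 3.04, 2.20 and 2.22 CPM after knockdown. Its log2 fold change was -1.12 (SE 0.24; adjusted p = 0.0301 by the quasi-likelihood test of edgeR), and an exact two-sided permutation test gave p = 0.1, the smallest that 3 against 3 livers allow. S1pr2 no longer passed without scramble liver 2 or 3 (adjusted p = 0.0785 and 0.0962), without knockdown liver 2 or 3 (0.117 and 0.101), or on FPKM (0.0677 to 0.0991), the count per transcript length and library size. On the first principal component scramble liver 1 lay at -46.3 and scramble livers 2 and 3 at -18.5 and -18.1, so results are also given without it where they change. All 12 hepatocyte markers passed the count filter, and their summed level was 156640 to 193200 CPM in the scramble and 110360 to 153940 CPM in the knockdown livers. Most of that sum was Alb, with 103210 to 128940 CPM in scramble and 56777 to 85554 CPM in knockdown livers, while Apoa1 was higher in the knockdown livers (2056 to 7803 against 8766 to 13300 CPM). None of the 12 passed the test in either direction. The 18 endothelial markers summed to 480 to 543 CPM and 646 to 705 CPM respectively, and 6 of them rose, against 3.02% of all genes. The summed cholangiocyte markers (69.6 to 99.4 against 105 to 180.1 CPM) were also higher in each knockdown liver, with 1 riser of 7 tested. Most of that sum was Anxa4 (41.5 to 44.1 against 58.9 to 73.7 CPM) and Spp1. Krt19 (2.20 to 10.6 against 2.20 to 3.94 CPM), Krt7 and Sox9 overlapped between the groups. Epcam and Tspan8, at 1.29 CPM or less, were higher in the knockdown livers. The summed lymphocyte markers (0.857 to 2.49 against 4.90 to 11.8 CPM) were higher too, with 1 riser of 1 tested, Cd4. The labels do not state that the libraries of a group came from separate animals, and each p-value therefore reflects the spread among these libraries alone, which may be technical.

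None of the 10 genes changed at an adjusted p under 0.05 over 12230 tested genes (edgeR), whereas 7.66% of all tested genes did. None had an unadjusted p under 0.05 either, against 24.5% of all genes, while DESeq2 called 0 of 10 (12% of all genes) and limma-voom 0 of 10 (6.98% of all genes). At a background of 7.66%, 0 of 10 is no result about these genes as a set. All 10 passed the count filter. Of their log2 fold changes 3 lay above and 7 below 0, with a median of -0.12 against 0.01 for all genes, and the median absolute value was 0.13 against 0.23 for all genes. What the data do give is a 95% confidence interval for each difference, estimated from these libraries. These intervals differed widely between the genes. The interval was narrowest for Ncor1 (±0.24 log2 units) and widest for Ppargc1b (±0.81).

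**Figure D1:**
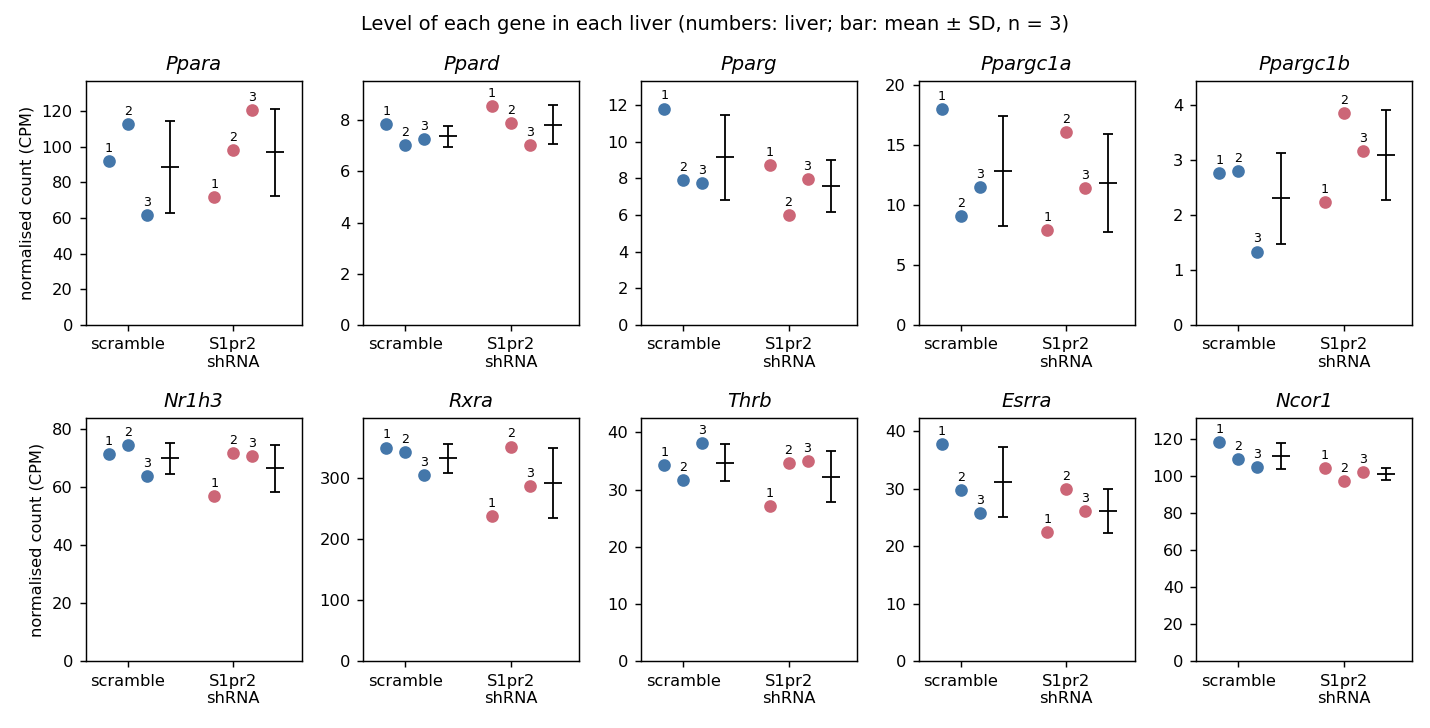
Normalised count (CPM, linear axis from 0) of each of the 10 genes in scramble (blue) and S1pr2 shRNA (red) livers; numbers name the liver, and the bar beside each group is the mean ± SD of 3 livers. The groups overlap in 9 panels; in Ncor1 the 3 knockdown livers, at 97.4 to 104.0 CPM, lie below the 3 scramble livers, at 104.7 to 118 CPM.

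Ppara encodes PPARα, the fatty acid-activated receptor that drives hepatic fatty acid oxidation and ketogenesis. With the scrambled hairpin it stood at 92.0, 113 and 61.5 CPM (livers 1, 2 and 3), and after knockdown at 71.6, 98.0 and 121 CPM. The lowest value was in scramble liver 3 and the highest in knockdown liver 3, and the groups overlapped over most of their range. The fold was 1.09 with a 95% interval of 0.710 to 1.68 (log2 fold change 0.13, SE 0.26, edgeR adjusted p = 0.822). Its spread within groups, an SD of 0.41 on the log2 CPM scale, was larger than that of 82.5% of tested genes. The direction rested on single livers: the log2 fold change was -0.08 without scramble liver 3 and -0.07 without knockdown liver 3, and 0.33 without scramble liver 2.

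Ppard encodes PPARδ, a fatty acid-activated receptor found in most tissues. It was among the steadiest of the 10 genes, with 7.84, 7.03 and 7.26 CPM in the scramble and 8.55, 7.90 and 7.03 CPM in the knockdown livers. These values rested on 113 to 169 counts per library. The fold was 1.06 with an interval of 0.849 to 1.33 (edgeR adjusted p = 0.764), and the spread within groups was 0.11 log2 units, larger than that of only 18.7% of tested genes.

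Pparg encodes PPARγ, the regulator of fat cell formation, which promotes lipid storage when it is expressed in hepatocytes. Scramble liver 1 stood highest at 11.8 CPM, with 7.90 and 7.75 CPM in scramble livers 2 and 3, and the knockdown livers had 8.75, 6.00 and 7.96 CPM. The groups overlapped, and scramble liver 1 carried much of the difference between them. The fold was 0.828 with an interval of 0.586 to 1.17 (log2 fold change -0.27, SE 0.22, edgeR adjusted p = 0.496). Without scramble liver 1 the log2 fold change was -0.05. The fat cell marker Adipoq was between 0 and 0.121 CPM in every liver and Lep was not listed, so transcripts that define fat cells were at or near 0. Fabp4, which fat cells and capillary endothelium share, was also highest in scramble liver 1, with 17.1, 7.77 and 10.9 CPM in scramble and 7.68, 6.06 and 6.85 CPM in knockdown livers. The summed level of the Kupffer cell and macrophage markers ranged from 179 to 438 CPM in scramble and from 278 to 581 CPM in knockdown livers. Its part in the Pparg values was not tested, and in bulk tissue fewer cells of a type and less RNA per cell cannot be told apart.

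The 2 listed Pparg transcripts have separate starts in the mouse gene, which give the PPARγ1 and PPARγ2 forms of the protein. The deposited tables give for each gene a transcript length weighted by the estimated abundance of its transcripts. For Pparg that length was 1857 bases in all scramble livers and knockdown liver 3, and 1850 bases in knockdown livers 1 and 2, a difference of 0.376% that leaves the FPKM almost untouched. For Ppara it ranged from 7259 to 7300 bases with overlapping groups.

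The RefSeq promoter table (GRCm38.p6) held 15 start windows for 9 of the genes, each running from 250 bases before to 50 bases after the start. The submitters' notes name mm9, so these coordinates do not come from the files. Both strands were searched for the receptor hexamer AGGTCA, and for its direct repeats with 1 base between the copies (DR1, bound by PPAR with RXR) or 4 bases between them (DR4, bound by liver X and thyroid hormone receptors with RXR). The search also covered the longer site TCAAGGTCA of estrogen-related receptors, which contains the hexamer. Further motifs were the cAMP response element TGACGTCA and a shorter variant, CACGTCA, which TGACGTCA does not contain. The last was the glucocorticoid response element, AGAACA and TGTTCT with any 3 bases between them. The hexamer occurred in 4 of the 15 windows, in the first and second Pparg windows, the second Rxra window and the first Thrb window, against 16.3% of 32851 promoter windows of all genes. The variant CACGTCA occurred in the Ppargc1a window only, against 2.01% of all windows. None of the 15 windows held TCAAGGTCA (0.423% of all windows), DR1 (0.0396%), DR4 (0.0152%), TGACGTCA (1.79%) or the glucocorticoid response element (0.00913%). These 3 windows are printed in the direction of the gene because Ppara, Pparg and Ppargc1a varied most between livers among the genes with a window; capitals mark the motif matches.
Ppara, chr15:85735526-85735825, plus strand: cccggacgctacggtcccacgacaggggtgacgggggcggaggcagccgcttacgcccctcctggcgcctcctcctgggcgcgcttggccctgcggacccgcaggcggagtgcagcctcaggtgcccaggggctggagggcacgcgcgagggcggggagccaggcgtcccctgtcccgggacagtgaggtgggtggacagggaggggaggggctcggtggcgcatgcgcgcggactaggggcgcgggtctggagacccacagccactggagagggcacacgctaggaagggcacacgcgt
Pparg, first start, chr6:115360894-115361193, plus strand: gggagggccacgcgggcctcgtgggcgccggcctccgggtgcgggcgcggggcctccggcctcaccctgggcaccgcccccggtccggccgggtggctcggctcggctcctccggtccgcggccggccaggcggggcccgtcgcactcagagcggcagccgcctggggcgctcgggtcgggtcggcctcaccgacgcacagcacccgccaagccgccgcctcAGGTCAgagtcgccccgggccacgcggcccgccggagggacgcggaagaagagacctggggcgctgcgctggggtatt
Ppargc1a, chr5:51567676-51567975, minus strand: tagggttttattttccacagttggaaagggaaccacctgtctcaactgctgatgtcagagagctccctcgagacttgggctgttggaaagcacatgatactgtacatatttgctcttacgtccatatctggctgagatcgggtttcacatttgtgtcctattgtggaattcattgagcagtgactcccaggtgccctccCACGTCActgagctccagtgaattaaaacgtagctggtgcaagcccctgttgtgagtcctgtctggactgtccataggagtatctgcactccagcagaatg
The Ppara window is 74.7% G and C and holds no match, the Pparg window is 80.3% G and C and holds the hexamer 28 to 23 bases before the start, and the Ppargc1a window is 48.7% G and C, against a median of 52.7% over all windows. In Ppargc1a the match to CACGTCA lies 51 to 45 bases before the start. A match is a match of letters and does not show that a factor binds there.

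Rxra encodes RXRα, the main partner with which PPARs, liver X receptors and thyroid hormone receptors bind DNA in liver. It was the most abundant of the 10 transcripts, with 350.1, 342 and 305 CPM in the scramble and 238, 352 and 287 CPM in the knockdown livers. Knockdown liver 1 was lowest and knockdown liver 2 highest, so the knockdown group alone spanned the whole range. The fold was 0.879 with an interval of 0.673 to 1.15 (log2 fold change -0.19, SE 0.17, edgeR adjusted p = 0.554). The log2 fold change was -0.06 without knockdown liver 1 and -0.34 without knockdown liver 2. Per length, Rxra made up 79.0 to 84.6% of the FPKM of the 3 RXR genes in each liver, with 83.4 ± 1.14% (SD, n = 3) in the scramble and 81.5 ± 2.41% (n = 3) in the knockdown livers.

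Nr1h3 encodes LXRα, the receptor for oxysterols that raises sterol export and lipogenic genes. Its levels were close together, at 71.4, 74.4 and 64.0 CPM in the scramble and 57.0, 71.6 and 70.7 CPM in the knockdown livers. The fold was 0.949 with an interval of 0.781 to 1.15 (edgeR adjusted p = 0.764). LXRα is also expressed in Kupffer cells. Of their 14 markers, summed above, 0 rose and 0 fell, where 3.02% of all genes rose and 4.64% fell. The median log2 fold change of these markers was 0.50, against 0.01 for all genes. The part of Kupffer cells in the Nr1h3 values was not tested. Nr1h3 gave 64.9 to 68.5% of the summed FPKM of the LXR genes, the remainder coming from Nr1h2, which encodes LXRβ and stood at -0.01 on the log2 fold change scale (edgeR adjusted p = 0.976).

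Thrb encodes TRβ, the main thyroid hormone receptor of hepatocytes. It had 34.4, 31.7 and 38.1 CPM in the scramble and 27.2, 34.6 and 35.1 CPM in the knockdown livers, with overlapping groups. The fold was 0.929 with an interval of 0.754 to 1.14 (edgeR adjusted p = 0.682). Its paralog Thra, which encodes TRα and was picked out with its values in view, stood at 3.66, 4.86 and 4.10 FPKM in scramble livers and 6.07, 6.58 and 6.62 FPKM in knockdown livers. Thra did not pass the test (log2 fold change 0.46, SE 0.16, edgeR adjusted p = 0.122). Thrb therefore gave 59.9, 49.7 and 59.4% of the summed TR FPKM of scramble livers, and 45.9, 46.0 and 47.2% of that of knockdown livers. The 2 groups of shares did not overlap, and the difference was not tested. For comparison, the CPM of the groups did not overlap for 31.9% of all tested genes.

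Esrra encodes ERRα, an orphan receptor that acts with PGC-1 proteins on genes of oxidative phosphorylation. It had 37.7, 29.8 and 25.8 CPM in the scramble and 22.4, 29.9 and 26.1 CPM in the knockdown livers. As with Pparg, scramble liver 1 was the highest, and without it the other 5 livers lay between 22.4 and 29.9 CPM. The fold was 0.840 with an interval of 0.644 to 1.096 (log2 fold change -0.25, SE 0.17), and its edgeR adjusted p of 0.403 was the lowest of the 10 genes. Without scramble liver 1 the log2 fold change was -0.09, and without scramble liver 3 it was -0.37 (edgeR adjusted p = 0.253). The relatives Esrrb and Esrrg were far lower per length, and Esrra gave 93.3 to 95.6% of the FPKM of the 3 genes.

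**Figure D2:**
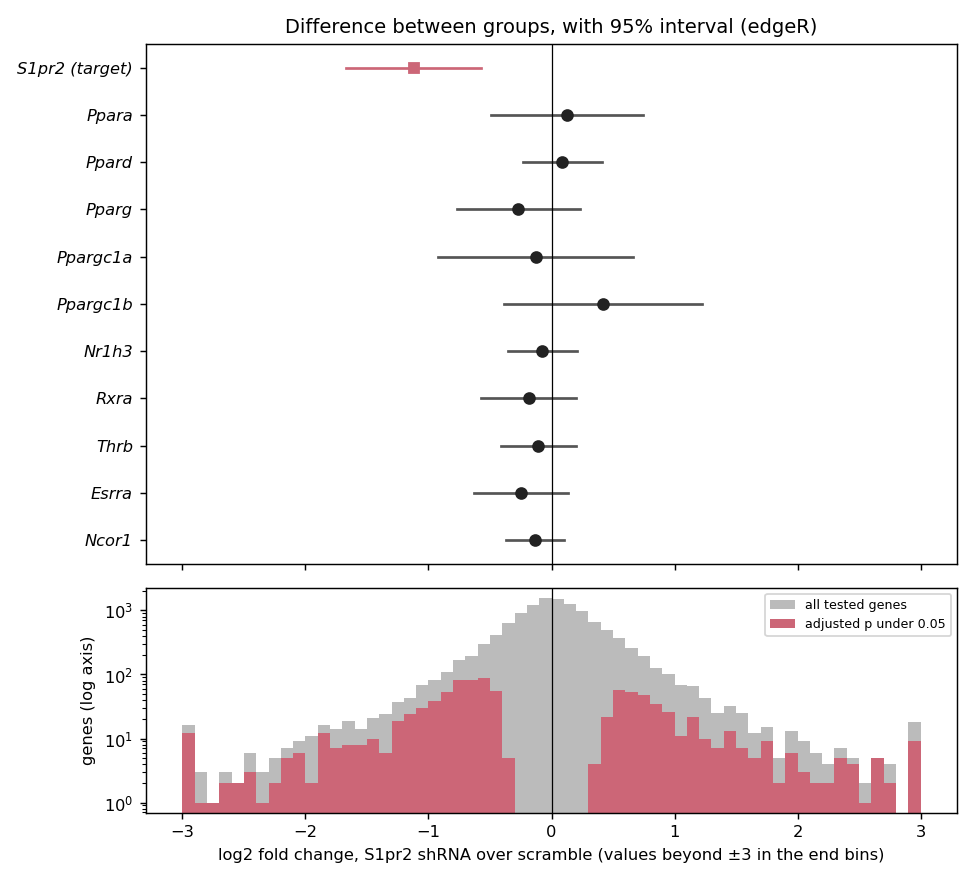
Top, log2 fold change (S1pr2 shRNA over scramble) with its 95% interval for the 10 genes and for the target S1pr2 (red square); bottom, number of tested genes (log axis) at each log2 fold change, with those past the test in red. The interval of each of the 10 genes includes 0, and that of S1pr2 runs from -1.67 to -0.57.

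Ppargc1a encodes PGC-1α, the coactivator induced by fasting signals and cAMP that raises gluconeogenic and oxidative genes. It varied about as much inside each group as over all livers, with 17.95, 9.09 and 11.4 CPM in the scramble and 7.89, 16.05 and 11.4 CPM in the knockdown livers. Scramble liver 1 and knockdown liver 2 were high, and scramble liver 2 and knockdown liver 1 low. The fold was 0.916 with an interval of 0.529 to 1.59 (log2 fold change -0.13, SE 0.33, edgeR adjusted p = 0.861). Its spread within groups (SD 0.50 log2 units) exceeded that of 87.4% of tested genes, the widest among the 10. The log2 fold change was 0.20 without scramble liver 1, 0.10 without knockdown liver 1 and -0.41 without knockdown liver 2.

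Ppargc1b encodes PGC-1β, a related coactivator linked to lipogenic and mitochondrial genes, and was the rarest of the 10 transcripts. It had 2.76, 2.80 and 1.33 CPM in the scramble and 2.23, 3.86 and 3.16 CPM in the knockdown livers, from 22 to 63 counts per library. The lowest liver was scramble liver 3, with 22 counts. The fold of 1.34 was the largest of the 10, with an interval of 0.765 to 2.34 (log2 fold change 0.42, SE 0.35, edgeR adjusted p = 0.516). Without scramble liver 3 the log2 fold change was 0.14, and without knockdown liver 1 it was 0.61. In the scramble livers Ppargc1a was 1.83 to 4.88 times Ppargc1b per length, and in the knockdown livers 2.01 to 2.34 times, with overlapping groups.

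Ncor1 encodes the corepressor NCoR1, which binds thyroid hormone receptors and liver X receptors without ligand and carries HDAC3 to them. It was the steadiest of the 10 genes, with 118, 109 and 104.7 CPM in the scramble and 104.0, 97.4 and 102 CPM in the knockdown livers. Each knockdown liver lay below each scramble liver, by as little as 104.0 against 104.7 CPM. It was the 1 gene of 10 whose groups did not overlap, against 31.9% of all tested genes. The fold was 0.913 with an interval of 0.775 to 1.08 (log2 fold change -0.13, SE 0.10, edgeR adjusted p = 0.484). Its spread within groups (SD 0.07 log2 units) was larger than that of 5.21% of tested genes. The separation depended on the scaling: scramble livers had 13.5, 12.2 and 12.0 FPKM of Ncor1 and knockdown livers 14.3, 11.7 and 12.6 FPKM, which overlap. Its 3 transcripts gave the most variable weighted length among the 10 genes, 8089 to 8370 bases, and its counts were fractional in 6 libraries, as were those of Ppargc1a and Thrb. RSEM gives fractions where a read fits more than 1 sequence, so the counts of these 3 genes are in part estimates. So are those of Esrra in knockdown livers 1 and 2 (443.28 and 489.34 counts).

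Knockdown liver 1 had the lowest CPM for 5 of the 10 genes (Esrra, Nr1h3, Ppargc1a, Rxra and Thrb), and scramble liver 1 the highest for 4 (Esrra, Ncor1, Pparg and Ppargc1a). Knockdown liver 1 also had the largest scaling factor (1.15, against 0.924 to 1.03 in the other livers), and in FPKM it was the lowest for Rxra only. The same liver had the lowest summed hepatocyte markers (110360 CPM) and the highest summed Kupffer cell and macrophage markers (581 CPM). Its summed stellate cell and fibroblast markers (608 CPM) were the highest too, with scramble liver 3 next at 557 CPM. The part of scaling or of cell mixture in its low values was not tested. In FPKM, where the median of all genes stood at 0.16 log2 units (pseudocount 0.1) and 0.10 (pseudocount 1), Ppargc1a, Nr1h3, Thrb and Ncor1 had log2 fold changes of 0.011 to 0.070 in place of values below 0. These values lie below that median. Over 17 alternative settings no gene of the 10 was called, and the lowest adjusted p was that of Esrra without scramble liver 3.

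**Figure D3:**
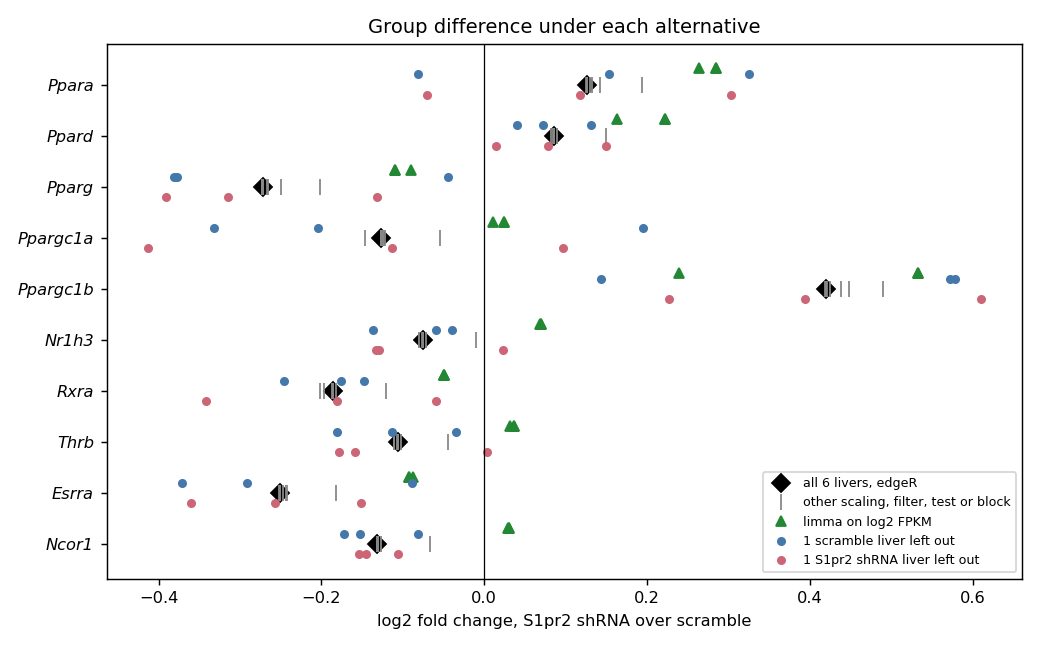
Log2 fold change (S1pr2 shRNA over scramble) of each gene with all 6 livers (black diamonds), with 1 scramble (blue) or 1 S1pr2 shRNA liver (red) left out, on FPKM (green triangles) and under other scalings, filters, tests or the replicate block (grey ticks). The values of Pparg, Rxra and Esrra stay below 0 and those of Ppard and Ppargc1b above 0, while the other 5 genes cross 0 under at least 1 alternative.

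Levels of different genes were compared per length, in FPKM over all 6 livers. Rxra stood at 59.6 ± 5.51 FPKM (SD, n = 6), Nr1h3 at 37.5 ± 2.22, Ncor1 at 12.7 ± 0.992, Esrra at 12.5 ± 1.88 and Ppara at 12.5 ± 2.96. Below them were Thrb at 5.49 ± 0.455, Pparg at 4.52 ± 1.09, Ppard at 2.34 ± 0.360, Ppargc1a at 1.86 ± 0.553 and Ppargc1b at 0.727 ± 0.231. The ranges over livers overlapped between Ncor1 and Esrra, Esrra and Ppara, Thrb and Pparg, and Ppard and Ppargc1a, so their order is not settled. Rxra, Nr1h3, the group of Ncor1, Esrra and Ppara, the pair Thrb and Pparg, the pair Ppard and Ppargc1a, and Ppargc1b were separate from each other in neighbouring order. Among the 45 nuclear receptor genes listed in these livers, Rxra ranked 3 by mean FPKM after Hnf4a (112) and Nr1h4 (71.6), and Nr1h3 ranked 5. Esrra and Ppara ranked 12 and 13, Thrb 20, Pparg 23 and Ppard 27. Ppara gave 56.6 to 71.8% of the FPKM of the 3 PPAR genes, Pparg 17.1 to 30.1% and Ppard 9.41 to 15.4%.

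**Figure D4:**
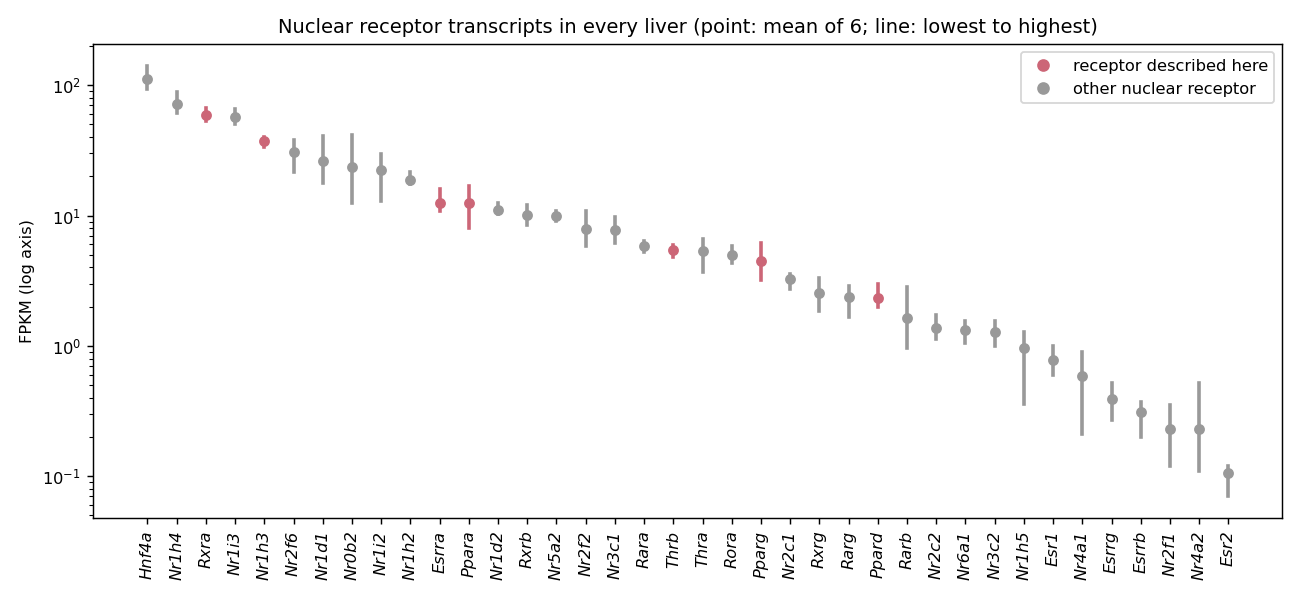
FPKM (log axis) of nuclear receptor transcripts listed in every liver, with those not reported here left out, as the mean of 6 livers (point) and the range from lowest to highest (line), with the 7 receptors described here in red. Rxra and Nr1h3 lie among the 5 most abundant receptors, and Ppard lies at 1.98 to 3.01 FPKM.

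Genes that these receptors are known to regulate were taken as lists. The lists were chosen with earlier results of these data known, so their shares of called genes are no independent comparison with all genes. Of 39 genes of fatty acid oxidation and ketogenesis regulated by PPARα, 1 rose, 0 fell and 38 did not pass, with a median log2 fold change of -0.16 against 0.01 for all genes. The background was 3.02% of all genes higher and 4.64% lower. Acot1, an acyl-CoA thioesterase, had 23.1, 18.2 and 18.4 CPM in the scramble and 46.8, 48.9 and 37.3 CPM in the knockdown livers, and rose (1.15 on the log2 scale, SE 0.15, edgeR adjusted p = 0.00633). It passed under all 17 alternatives, but its counts were fractional in 6 libraries, so reads shared with related genes make its value uncertain. Of the 39 genes 9 lay above and 30 below 0. The DESeq2 test called 6 of them lower and 2 higher, and without scramble liver 1 edgeR called 2 higher. The median was -0.02 on FPKM, with all genes at 0.16 (pseudocount 0.1) or 0.10 (pseudocount 1).

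Of 14 listed lipid storage genes regulated by PPARγ, 7 passed the count filter; 1 of these fell, 0 rose and 6 did not pass (median -0.78). Cd36, a fatty acid transporter, fell from 325, 139 and 155 CPM to 42.6, 30.6 and 63.2 CPM (-2.18 on the log2 scale, SE 0.43, edgeR adjusted p = 0.0351). The scramble livers lay above the knockdown livers without overlap, and scramble liver 1 was the highest, as for Pparg. The Cd36 call was lost without scramble liver 3 (adjusted p = 0.0583), knockdown liver 1 (0.106), 2 (0.115) or 3 (0.0531), and without the count filter (0.0652). The median of the list was -0.45 without scramble liver 1 and -0.27 to -0.51 on FPKM, and DESeq2 called 2 lower.

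Of 17 genes regulated by liver X receptors, 3 rose, 1 fell and 13 did not pass (median 0.03). The sterol exporter pair Abcg5 and Abcg8 rose, from means of 53.2 and 44.8 CPM to 99.4 and 77.5 CPM (0.90 with SE 0.14 and 0.79 with SE 0.19 on the log2 scale; edgeR adjusted p = 0.0130 and 0.0449). Abcg1, which moves cholesterol to lipoproteins, had 2.39, 3.55 and 5.27 CPM in the scramble and 10.2, 7.84 and 7.08 CPM in the knockdown livers and rose narrowly (1.17, SE 0.29, edgeR adjusted p = 0.0498). Abca1, which loads cholesterol onto apolipoprotein A1, went the other way, from 148, 158 and 112 CPM to 79.1, 69.4 and 75.6 CPM (-0.90, SE 0.15, edgeR adjusted p = 0.0142). The sterol transporters of the list thus moved in both directions. Without knockdown liver 2 none of the 4 passed (adjusted p 0.0519 for Abcg5, 0.140 for Abcg8, 0.131 for Abcg1 and 0.0740 for Abca1). Abcg5 was also lost without scramble liver 3 (0.0501) and Abca1 without knockdown liver 3 (0.0508), Abcg8 without any liver but scramble liver 2 (0.0707 to 0.140), and Abcg1 under 12 of 17 alternatives, among them each liver left out but scramble liver 3 (0.0891 to 0.143). Without scramble liver 1 the list had 1 rise and 3 falls, and with DESeq2 4 rises and 3 falls.

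Of 14 genes regulated by thyroid hormone, 3 fell, 1 rose and 10 did not pass (median -0.34). The median was -0.21 without scramble liver 2 and -0.19 to -0.20 on FPKM, and DESeq2 called 5 lower. The lipogenic genes Thrsp and Me1 fell, Thrsp from 816, 1434 and 1463 CPM to 280.4, 328 and 319 CPM and Me1 from 421, 537 and 556 CPM to 125, 107 and 176 CPM. Their log2 fold changes were -2.0 (SE 0.24) and -1.89 (SE 0.22), with edgeR adjusted p = 0.00553 and 0.00531. G6pc, the catalytic subunit of glucose-6-phosphatase, fell as well (-1.66, SE 0.23, edgeR adjusted p = 0.00887), and these 3 passed under all 17 alternatives. All 3 genes have other regulators besides TRβ. Bcl3, a nuclear cofactor of NF-κB, rose (0.90, SE 0.21, edgeR adjusted p = 0.0433), a call lost without scramble liver 1 (0.101) or 3 (0.128) or without knockdown liver 1 (0.0725), 2 (0.139) or 3 (0.117). Among 9 tested genes of thyroid hormone handling, 1 rose, 0 fell and 8 did not pass (median -0.07). The riser was Serpina7, which encodes thyroxine-binding globulin, from 24.8, 11.3 and 18.7 CPM to 121, 76.1 and 57.9 CPM (2.22, SE 0.38, edgeR adjusted p = 0.0253). It was lost without scramble liver 3 (0.0726) or knockdown liver 2 (0.0831), and 2 genes of this list rose without scramble liver 1. Dio1, the deiodinase that activates thyroxine in liver and a gene induced by TRβ, stood at -1.26 (edgeR adjusted p = 0.138) and was named after its values were seen.

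Of 33 mitochondrial genes regulated by PGC-1 and ERR proteins, 1 fell, 0 rose and 32 did not pass (median -0.04). Sod2, the mitochondrial superoxide dismutase, fell from 230.4, 199 and 209 CPM to 115, 146 and 156 CPM (-0.61, SE 0.15, edgeR adjusted p = 0.0452). Its counts were fractional in 6 libraries, and the call was lost whichever liver was left out (0.0697 to 0.130), with upper-quartile scaling (0.0570) and on FPKM (0.0591 to 0.0699). DESeq2 called 1 gene of the list higher and 3 lower, and limma-voom and edgeR with non-robust dispersions called 2 lower each. In the edgeR test with all 6 livers the other genes, among them subunits of the respiratory chain and enzymes of the citric acid cycle, did not pass in either direction, beside levels of Ppargc1a, Ppargc1b and Esrra whose groups overlapped.

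**Figure D5:**
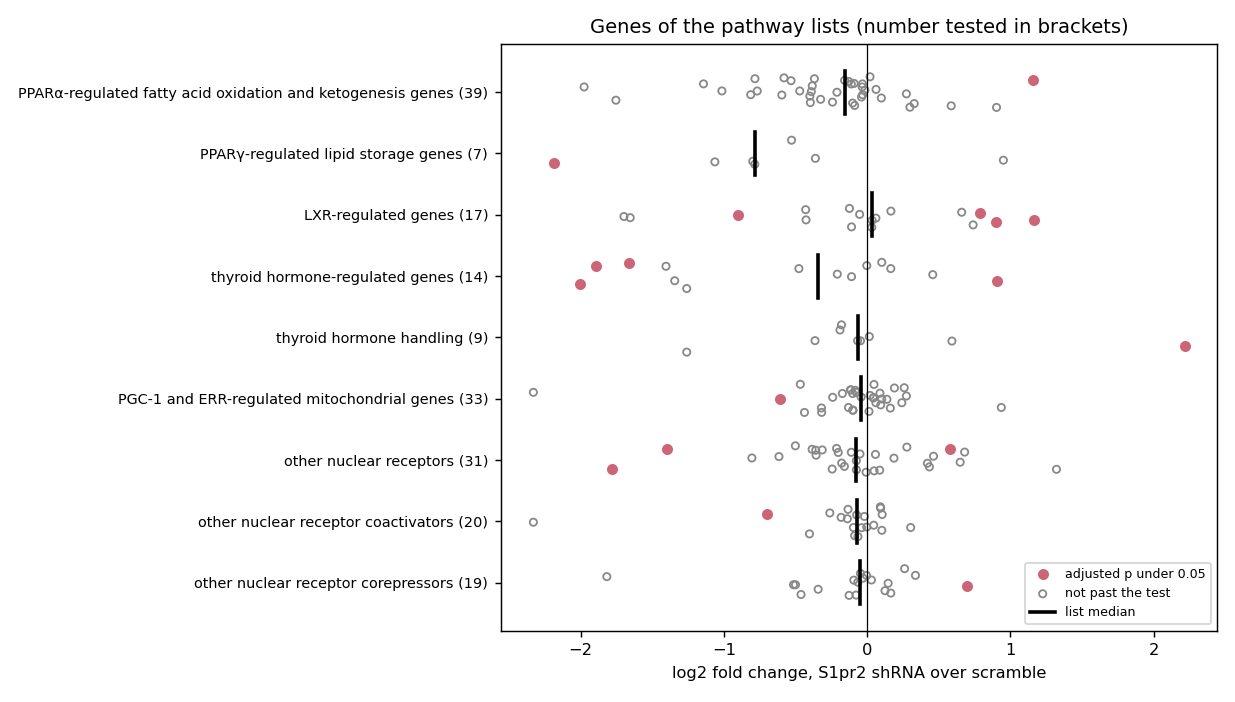
Log2 fold change (S1pr2 shRNA over scramble) of each tested gene of the lists, with genes past the test filled in red, other genes as open circles and the list median as a black bar. Medians lie between -0.78 (PPARγ-regulated genes) and 0.03 (LXR-regulated genes). Between 2.56% (PPARα-regulated genes, 39 tested) and 28.6% (thyroid hormone-regulated genes, 14 tested) of a list passed, against 7.66% of all genes. The lists were chosen with earlier results of these data known.

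Of 31 other nuclear receptors tested, 1 rose, 2 fell and 28 did not pass (median -0.07). Nr2f2, which encodes the orphan receptor COUP-TFII of endothelium and other cells, rose from 25.8, 28.7 and 26.02 CPM to 35.8, 39.9 and 44.7 CPM (0.58, SE 0.11, edgeR adjusted p = 0.0240). The endothelial markers were higher in the same livers, and their part in the Nr2f2 result was not tested. The Nr2f2 call was lost without any liver but knockdown liver 1 (0.0543 to 0.0917). With a liver left out, 0 to 2 of these receptors rose and 0 to 1 fell.

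Among the other receptor cofactors, 1 of 20 coactivators fell, 0 rose and 19 did not pass (median -0.07), and 1 of 19 corepressors rose, 0 fell and 18 did not pass (median -0.05). The coactivator was Smarcd1, a subunit of the SWI/SNF chromatin remodeller that binds PGC-1α, which fell from 9.86, 11.9 and 10.5 CPM to 7.74, 6.74 and 5.33 CPM (-0.70, SE 0.17, edgeR adjusted p = 0.0455). The corepressor was Ncoa5, which can repress or activate estrogen receptor targets, and which rose from 8.33, 8.77 and 8.29 CPM to 15.4, 14.1 and 11.6 CPM (0.70, SE 0.14, edgeR adjusted p = 0.0241). Smarcd1 was lost without any liver but knockdown liver 1 (0.0732 to 0.134), with upper-quartile scaling (0.0638) and on FPKM (0.134 to 0.182), and Ncoa5 without any but knockdown liver 3 (0.0537 to 0.0974). On FPKM the medians of the coactivators, the corepressors, the other receptors, the mitochondrial genes and the thyroid hormone handling genes lay above 0 (0.045 to 0.112), below the median of all genes with a pseudocount of 0.1 (0.16). Pprc1, another gene of the PGC-1 family, stood at 0.10 (edgeR adjusted p = 0.788) and was named after its values were seen.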

How the data were processed

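The files held 1 table per library. The submitters' processing notes name the build mm9 and the tools RSEM 1.2.12, Bowtie2, HISAT2 and DESeq2, without the role of each; strand handling and read filters are not given there. Per the file headers, the authors deposited for each gene an expected count (fragments assigned, not scaled to depth), FPKM (scaled by transcript length and library size, 2 decimals) and a transcript length. Genes not listed in a library were set to 0, and 0.204 to 0.255% of the counts belonged to genes without a symbol. Expected counts were rounded, filtered with filterByExpr (minimum count 10; 12230 genes) and scaled by TMM in edgeR 4.0.16 (R 4.3.3). The groups were compared with the two-sided quasi-likelihood F test with robust dispersions and group as the sole factor, adjusted by Benjamini-Hochberg over all genes; 937 genes passed at 0.05 (369 higher, 568 lower in the knockdown). SEs and 95% intervals come from that fit, and log2 CPM used a prior count of 2. All 15 library pairs differed beyond sampling noise. The alternatives were other scalings, filters, DESeq2 1.42.0, limma 3.58.1 (voom, and log2 FPKM with pseudocounts 0.1 and 1), non-robust dispersions, the replicate number as a block, and each liver left out.

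The 10 genes and all lists were chosen with earlier results of these data known. Named genes were the 10, S1pr2, and of each list up to 4 called genes in each direction with the smallest p. Besides these, marker genes, close relatives of the 10 and the most abundant receptors are named for their levels, and Thra, Dio1 and Pprc1 were chosen with their values in view. Promoter windows were matched by symbol to the RefSeq table of GRCm38.p6. A few genes of the lists are counted but not reported here by name.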

Additional observations from a re-analysis of the deposited data

How the results depend on the processing

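The number of the 10 genes called was 0 under all 17 alternatives. Of their 170 alternative values, 152 kept their sign and 18 changed it: 12 on FPKM and 6 with a liver left out. On FPKM the log2 fold change was 0.025 for Ppargc1a, 0.070 for Nr1h3, 0.037 for Thrb and 0.031 for Ncor1 with a pseudocount of 0.1, with or without the filter. With a pseudocount of 1 it was 0.011 for Ppargc1a, 0.068 for Nr1h3, 0.031 for Thrb and 0.029 for Ncor1. With single livers left out the ranges were -0.41 to 0.20 for Ppargc1a, -0.081 to 0.33 for Ppara, -0.14 to 0.023 for Nr1h3 and -0.18 to 0.00366 for Thrb. The cause of these changes was not tested. The number of genes called over all tested was 937, against 1461 with DESeq2 and 231 to 643 with a liver left out (12334 to 12495 genes tested), lowest without knockdown liver 2. The share of calls that were lower was 60.6%, against 48.5% with upper-quartile scaling and 30.6 to 31.6% on FPKM. For S1pr2 the log2 fold change was -1.11 with the replicate block (adjusted p = 0.0684), -0.90 on FPKM with a pseudocount of 0.1, filtered or not, -0.54 with a pseudocount of 1, and -1.29 to -0.95 with a liver left out. Across genes, deviations from the group mean correlated at -0.06, 0.22 and -0.12 between same-numbered livers 1, 2 and 3. Scramble liver 2 correlated best with its own number. Scramble liver 1 correlated best with knockdown liver 2 (0.08), and scramble liver 3 with knockdown liver 1 (0.30). Deviations of 3 livers sum to 0 within a group, so these values cannot show whether the numbers pair the livers. With the replicate block 808 genes were called, and of the genes named here S1pr2, Abcg1 (0.104), Sod2 (0.0802) and Smarcd1 (0.0644) were lost. Ppargc1b rested on the fewest counts of the 10 genes, 22 to 63 per library.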
